A study of Mus musculus with 8 samples.

Results

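The genes described here are 6 members of the carnitine system of the liver, Cpt1a, Cpt2, Slc25a20, Crat, Crot and Slc22a5. They were taken by symbol, as all probe sets annotated to exactly 1 of these genes, which gave 14 of the 45037 probe sets tested and 6 of 18193 genes. Transcripts were measured on Affymetrix arrays, which report the brightness of short probes grouped into probe sets, in the livers of 4 Mfp2 -/- mice (KO) and 4 wild type mice (WT), all 2 days old, with 1 array per liver. Mfp2 is the second multifunctional enzyme of peroxisomal beta-oxidation and is encoded by Hsd17b4. The labels give no strain, sex, litter or deleted exon, and no other allele or agent. The design text counts 4 mice of each genotype, as many as there are arrays, and nothing says whether any shared a litter. The comparison asks which liver transcripts differ in newborn mice without this enzyme.

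Carnitine carries fatty acids across membranes that acyl-CoA cannot pass. Cells import carnitine through Slc22a5, a sodium-coupled transporter of the plasma membrane. At the outer mitochondrial membrane Cpt1a, the liver form of carnitine palmitoyltransferase and the step that malonyl-CoA inhibits, joins long acyl chains to carnitine. Slc25a20 exchanges the acylcarnitine for free carnitine across the inner membrane, and Cpt2 gives the chain back to CoA in the matrix. Crat, which works on acetyl and other short chains, and Crot, which works on medium chains in peroxisomes, turn the shortened products of oxidation into carnitine esters that can leave the organelle. Several of these genes are known targets of the fatty acid sensing nuclear receptor PPARalpha, and newborn liver depends on this route when milk fat becomes the main fuel.

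The promoter windows of the genes are shown because PPARalpha acts through a repeated half-site and because the 6 genes are described together. RefSeq windows of 300 bases, 250 before and 50 after a start site, were found for 5 of the 6 genes (build GRCm38.p6), and Crat had no entry. On both strands each was searched for DR1, which is 2 copies of the half-site AGGTCA with 1 base of any kind between them, with up to 2 mismatches, and for GGGCGG, the GC box. A DR1 match was found in the Slc25a20 window alone among the 5, as AGGTGAAAGGTCG with 2 mismatches, from base 6 to base 18 after the start site. Of 32851 mouse windows of this length, 3.86% held such a match, and 0.0396% held the repeat with 0 mismatches. GC boxes numbered 3 in Cpt1a, 3 in Cpt2, 3 in Slc25a20, 2 in Crot and 5 in Slc22a5, with the last pair in Slc22a5 overlapping by a base, and 35.7% of windows held at least 1. The windows of the outer membrane enzyme, the inner membrane carrier and the plasma membrane importer follow, with GC boxes of either strand and the DR1 match in capitals. They are chr19:3323051-3323350 on the plus strand, chr9:108661886-108662185 on the plus strand and chr11:53891654-53891953 on the minus strand.
Cpt1a: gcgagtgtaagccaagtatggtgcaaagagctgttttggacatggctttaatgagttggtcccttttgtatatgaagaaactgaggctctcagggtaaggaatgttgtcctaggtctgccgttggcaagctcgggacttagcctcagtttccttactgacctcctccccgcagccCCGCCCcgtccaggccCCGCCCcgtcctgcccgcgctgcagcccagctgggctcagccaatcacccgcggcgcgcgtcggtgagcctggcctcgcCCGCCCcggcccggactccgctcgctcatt
Slc25a20: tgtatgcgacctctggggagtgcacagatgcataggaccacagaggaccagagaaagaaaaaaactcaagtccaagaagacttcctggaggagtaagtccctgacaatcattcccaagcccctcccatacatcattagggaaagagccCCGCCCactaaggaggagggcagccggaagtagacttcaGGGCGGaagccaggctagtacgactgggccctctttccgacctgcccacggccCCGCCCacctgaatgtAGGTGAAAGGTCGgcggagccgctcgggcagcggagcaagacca
Slc22a5: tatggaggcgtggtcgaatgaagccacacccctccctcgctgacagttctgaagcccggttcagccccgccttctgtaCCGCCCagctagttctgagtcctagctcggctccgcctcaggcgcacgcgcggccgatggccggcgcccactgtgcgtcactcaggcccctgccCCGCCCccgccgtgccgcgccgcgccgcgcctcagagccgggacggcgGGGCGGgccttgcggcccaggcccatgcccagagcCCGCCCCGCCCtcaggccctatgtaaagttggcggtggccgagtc
A match of letters is a description and does not show that a factor binds there. Bases outside these windows were not searched, so a window without a match does not show that a gene lacks the site.

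All values below are log2 values made by the authors with RMA, a method that corrects background, equalises the distribution of the arrays and summarises each probe set. Array medians lay between 3.68 and 3.73, and a value near them is not shown to be above background. Hsd17b4, the targeted gene, was low in all 4 KO livers. The representing probe set of Hsd17b4 read 4.29, 3.76, 3.25 and 4.05 in KO livers 1 to 4 and 8.18, 8.71, 8.97 and 8.15 in WT livers 1 to 4, a difference of -4.66 ± 0.25 (SE) with a limma adjusted p of 1.00e-04. Albumin (Alb), the defining hepatocyte transcript, averaged 13.48 ± 0.04 in KO and 13.52 ± 0.02 in WT livers (SD, n = 4 each). Xist, which is transcribed from the inactive X of females, stood high in KO 1, KO 2 and WT 3, with 8.59, 9.28 and 8.67, and lay between 2.83 and 4.32 in the other 5 livers. Of the 9 erythroid markers measured, 8 had KO values all below the WT values, against 5.02% of all genes, and 2 passed the threshold used below. The mean of this list lay between 7.79 and 8.33 in KO livers and between 8.63 and 8.84 in WT livers. The actin control probe sets, whose gap between the 3' and 5' ends grows as RNA breaks down, gave a gap of 0.703 ± 0.122 in KO and 0.619 ± 0.069 in WT livers (SD, n = 4 each, two-sided exact permutation p 0.343). Fewer cells of a type and less RNA per cell cannot be told apart in whole liver.

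None of the 6 carnitine genes passed the threshold of 0.05 in limma after adjustment over all probe sets, and all 14 of their probe sets had higher means in KO livers. Of all genes 1.15% passed, 0.308% with higher and 0.841% with lower values in KO, and of all probe sets 0.762% passed, 0.198% higher and 0.564% lower. A higher mean in KO was found for 54.1% of all probe sets and 53.3% of all genes. Of the 14 probe sets 13 lay above the median level, where 50.5% of probe sets had a higher mean in KO. The 14 differences ran from 0.13 to 0.74 with a median of 0.29, where the median over all probe sets was 0.02, and several probe sets of a gene are not separate evidence. For 3 probe sets of 2 genes, a pair of Cpt1a and 1 of Slc22a5, the unadjusted p was under 0.05 with KO higher, which held for 5.17% of all probe sets, while 11.7% had an unadjusted p under 0.05 in either direction. Among the 6 representing probe sets this was 1, Cpt1a, against 6.4% of all genes. Adjusted p-values of the 14 ran from 0.132 to 0.710. The 95% intervals of the other 11 differences included 0. The highest upper bound was a difference of 1.16, or 2.24-fold.

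**Figure D1:**
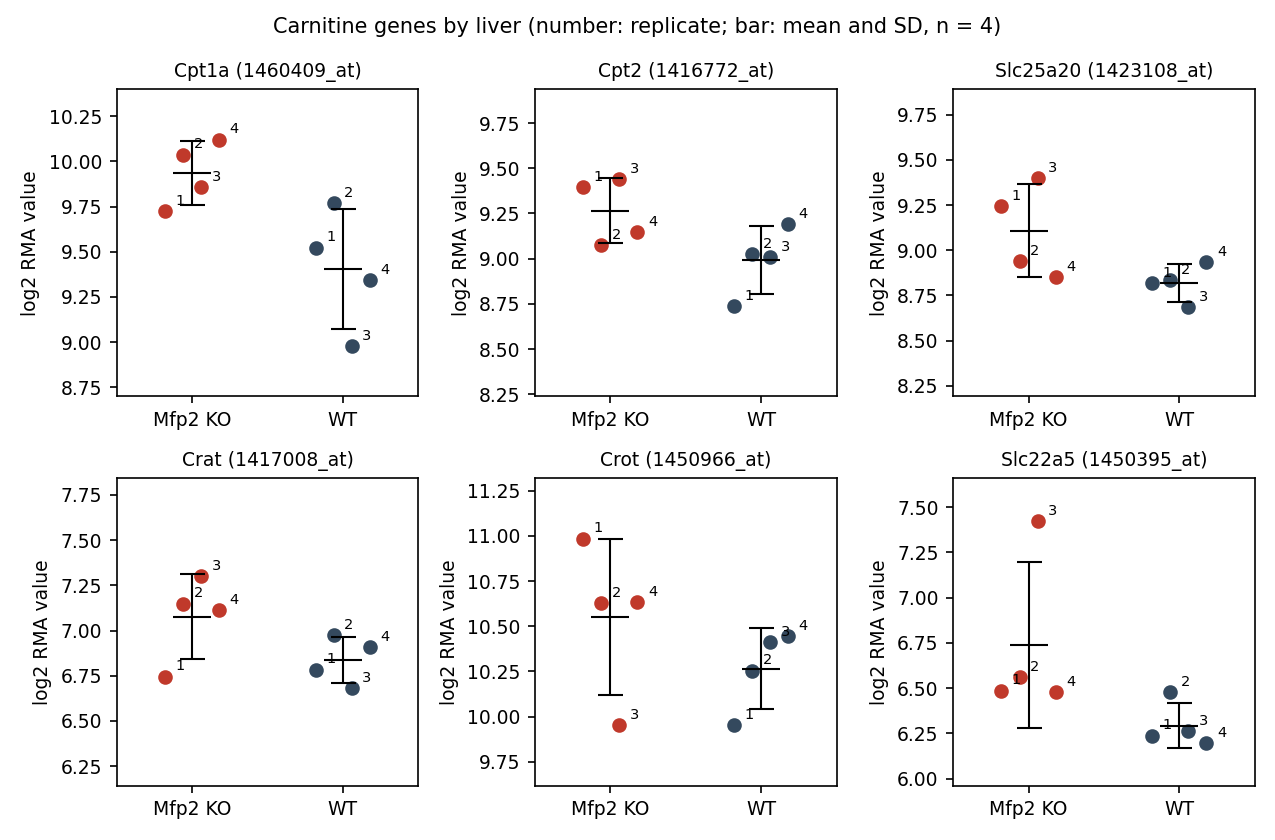
The log2 RMA value of the probe set that represents each of the 6 carnitine genes (y axis) is plotted for each Mfp2 KO liver (left, red) and each WT liver (right, dark blue), with the replicate number beside each point and bars for the mean and SD of 4 livers. Slc22a5 is the 1 gene of the 6 whose groups do not overlap, by a gap of only 1.65e-04. KO values all above WT values were found for 3.59% of all genes. The KO 3 value of Slc22a5, 7.42, stands above the other 7 livers.

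Slc22a5, which brings carnitine into the cell, gave the largest difference among the probe sets. Its second probe set, 1421848_at, read 4.50, 4.72, 5.31 and 4.57 in KO livers 1 to 4 and 4.31, 4.04, 3.69 and 4.12 in WT livers 1 to 4. All 4 KO values lay above all 4 WT values, which held for 3.09% of all probe sets. The difference was 0.74 ± 0.19 (SE), a 1.66-fold higher level with a 95% interval of 1.24-fold to 2.24-fold, a limma unadjusted p of 0.00327 and an adjusted p of 0.132. The WT mean of 4.04 lies close to the array medians, so the fold can be an underestimate. The brighter probe set, 1450395_at, which represents the gene, read 6.49, 6.56, 7.42 and 6.48 in KO livers 1 to 4 and 6.24, 6.48, 6.26 and 6.20 in WT livers 1 to 4. Here the groups parted by a gap of 1.65e-04 between KO 4 and WT 2, far smaller than the spread within either group. The difference was 0.44 ± 0.20, with a limma adjusted p of 0.432, and without KO 3 it was 0.21. Both probe sets were highest in KO 3, and their deviations from the genotype means correlated with r = 0.76 over the 8 livers.

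Cpt1a, the malonyl-CoA-sensitive entry step, had the lowest unadjusted p among the 6 representing probe sets. That probe set, 1460409_at, read 9.73, 10.04, 9.86 and 10.12 in KO livers 1 to 4 and 9.52, 9.77, 8.98 and 9.34 in WT livers 1 to 4. The groups overlapped in a single pair, with KO 1 just below WT 2. The difference was 0.53 ± 0.17 (SE), a 1.45-fold higher level with a 95% interval of 1.12-fold to 1.87-fold, a limma unadjusted p of 0.00928 and an adjusted p of 0.215. The probe set 1434866_x_at differed by 0.61 ± 0.21 (adjusted p 0.269) and 1438156_x_at by 0.35 ± 0.22 (adjusted p 0.606). The ending x_at marks probe sets whose probes can match other transcripts. The 3 probe sets did not rank the KO livers alike: KO 4 was highest of the 4 in 1460409_at and lowest in 1438156_x_at. In all 3, WT 3 was the lowest of the 8 livers, and without it the 3 differences were 0.39, 0.42 and 0.19, in the order given here.

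Slc25a20, the carrier of the inner membrane, had 2 probe sets that followed each other, with r = 0.96 between their deviations. The brighter, 1423108_at, read 9.24, 8.94, 9.40 and 8.85 in KO livers 1 to 4 and 8.82, 8.83, 8.68 and 8.94 in WT livers 1 to 4. KO 1 and KO 3 lay clearly above all WT livers, KO 2 was level with the highest, WT 4, and KO 4 lay among them. The difference was 0.29 ± 0.13 (SE, limma adjusted p 0.436), and 0.19 without KO 3. The other probe set, 1423109_s_at, differed by 0.26 ± 0.12 (adjusted p 0.469).

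Cpt2, which returns the acyl chain to CoA in the matrix, read 9.40, 9.08, 9.44 and 9.15 in KO livers 1 to 4 and 8.74, 9.02, 9.01 and 9.19 in WT livers 1 to 4 on 1416772_at. KO 1 and KO 3 lay above all WT livers here too, and KO 2 and KO 4 lay below WT 4. The difference was 0.27 ± 0.13 (SE, limma adjusted p 0.444). Its second probe set, 1447820_x_at, had a KO mean of 3.02 and a WT mean of 2.85, both below the array medians, so a transcript is not shown there. It differed by 0.16 ± 0.13 (adjusted p 0.710), by 0.084 without KO 2 and by 0.28 without KO 4.

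Crat, the short-chain transferase, had 3 probe sets with small differences. On 1417008_at it read 6.74, 7.15, 7.30 and 7.11 in KO livers 1 to 4 and 6.78, 6.97, 6.68 and 6.91 in WT livers 1 to 4. KO 2, KO 3 and KO 4 lay above all WT livers and KO 1 lay below all but WT 3. The difference was 0.24 ± 0.13 (SE, limma adjusted p 0.540). KO 1 was also the lowest KO liver on the other probe sets, 1441919_x_at at 0.23 ± 0.11 (adjusted p 0.440) and 1448544_at at 0.38 ± 0.17 (adjusted p 0.437). The last of these had a WT mean of 4.03, close to the array medians.

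Crot, the medium-chain transferase of peroxisomes, stands next to Mfp2 in the pathway, since it receives chains that peroxisomal beta-oxidation has shortened. On 1450966_at it read 10.99, 10.63, 9.95 and 10.64 in KO livers 1 to 4 and 9.95, 10.25, 10.41 and 10.44 in WT livers 1 to 4. KO 1, KO 2 and KO 4 lay above all WT livers, and KO 3 was level with WT 1 at the low end. The difference was 0.28 ± 0.20 (SE, limma adjusted p 0.674), with a 95% interval of 0.888-fold to 1.67-fold. It was 0.48 without KO 3, 0.14 without KO 1 and 0.18 without WT 1. The dim probe set 1440474_at, with a KO mean of 3.82 and a WT mean of 3.69, differed by 0.13 ± 0.10 (adjusted p 0.702), and by 0.055 without KO 2.

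**Figure D2:**
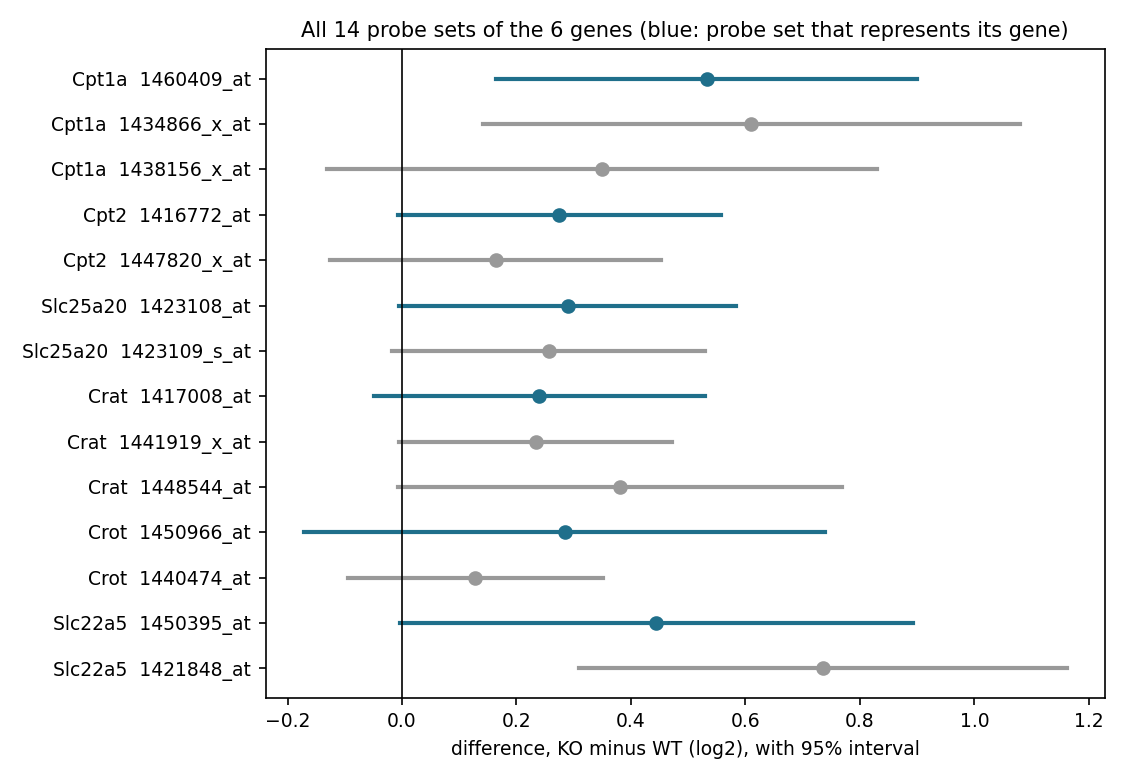
The difference between KO and WT livers on the log2 scale (x axis) is drawn with its 95% interval for each of the 14 probe sets (y axis), in blue for the probe set that represents its gene and in grey for the others. All 14 points lie to the right of 0, and 3 intervals, a pair of Cpt1a and 1 of Slc22a5, do not reach 0.

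The livers did not carry these differences evenly. KO 3 was the highest of the 8 livers in 6 of the 14 probe sets, KO 1 and KO 2 in 3 each and KO 4 in 2, and a WT liver was highest in 0. WT 3 was the lowest in 9, and a KO liver was lowest in 2. Among WT livers WT 3 alone had high Xist, at 8.67, and its erythroid mean, 8.84, was the highest of the 8 livers. The part of either in its low values was not tested. KO 3 combined the highest Slc22a5 value with the lowest Crot value on the representing probe sets. Over the 8 livers, deviations of Slc22a5 and Crot from their genotype means correlated with r = -0.81, the lowest of the 15 pairs of genes. The highest were Cpt2 with Slc25a20, the last steps of entry into the matrix, at r = 0.71, then Slc25a20 with Slc22a5 at 0.65 and Crat with Slc22a5 at 0.63. Cpt1a and Cpt2, the enzymes on either side of the inner membrane carrier, had r = -0.41. In KO 3 Slc22a5 deviated by 0.69, the most of the 8 livers, with 0.29 for Slc25a20, 0.23 for Crat and -0.60 for Crot. The r values with Slc22a5 thus weigh this liver heavily. All these r values are descriptions of 8 arrays that share a normalization.

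**Figure D3:**
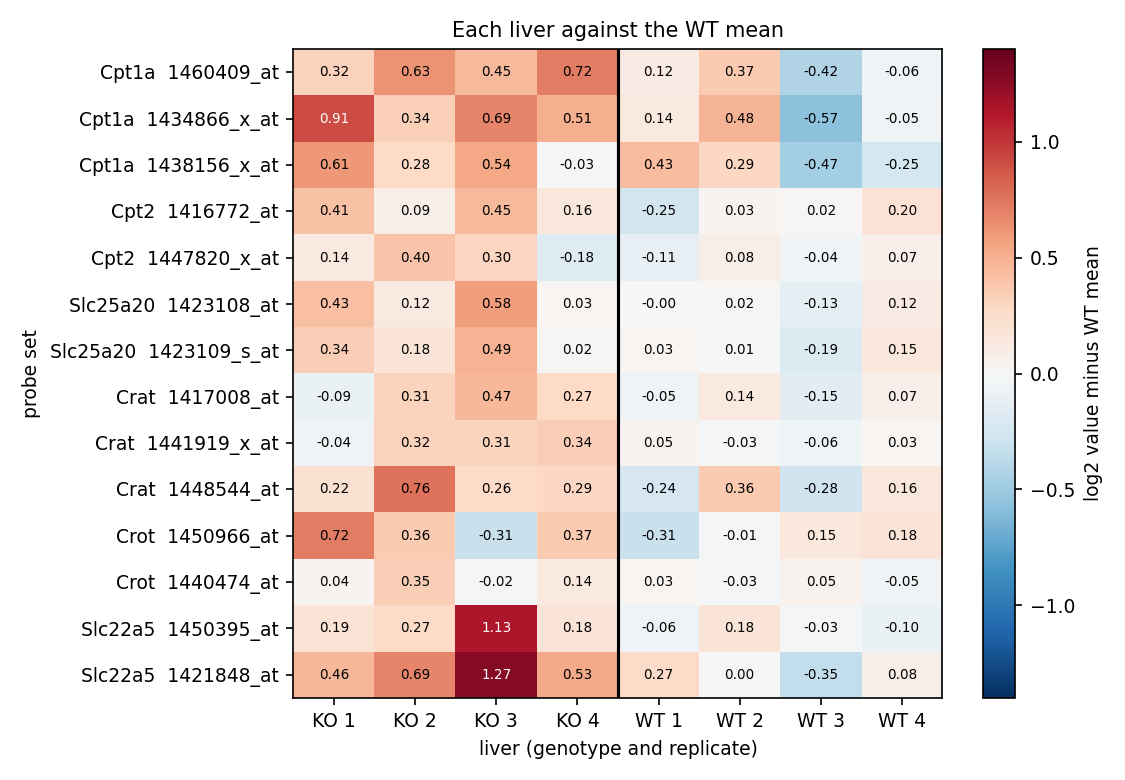
Each cell gives the log2 value of a probe set (rows, grouped by gene) in a liver (columns, KO 1 to 4 left of the line and WT 1 to 4 right of it) minus the WT mean of that probe set, in red above and blue below it. The column of KO 3 holds both the deepest red, in Slc22a5, and a blue cell in Crot, and the column of WT 3 is mostly blue.

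The difference was also taken within replicates 1 and 2 and within replicates 3 and 4. These sets were formed because an earlier analysis of these data saw a difference between them. What the replicate numbers stand for is not given in the labels. Deviations of KO and WT livers from different sets correlated with r between -0.24 and -0.034. For KO and WT livers of the same set, r lay between -0.0039 and 0.26. The fit as reported has no term for set, and the r values between genes or probe sets were not adjusted for it. Cpt1a differed by 0.24 within replicates 1 and 2 and by 0.83 within replicates 3 and 4, and Slc22a5 by 0.17 and 0.72. Crat differed by 0.07 and 0.41, Cpt2 by 0.36 and 0.19, and Slc25a20 by 0.27 and 0.31, for the same sets. Crot differed by 0.70 within replicates 1 and 2 and by -0.13 ± 0.23 (SE) within replicates 3 and 4. In the second set KO 3 lay below both WT livers and KO 4 above both. The dim Crot probe set 1440474_at differed by 0.059 there. A limma test of genotype by set gave Crot an unadjusted p of 0.0359 and an adjusted p of 1.00 over all probe sets, and 0 of the 14 probe sets passed. Crot was the 1 probe set of the 14 with an unadjusted p under 0.05 in this test, against 4.28% of all probe sets, and 0.00222% of all passed. Both KO livers of the first set had high Xist and both WT livers had low Xist, so sex and genotype cannot be told apart there.

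**Figure D4:**
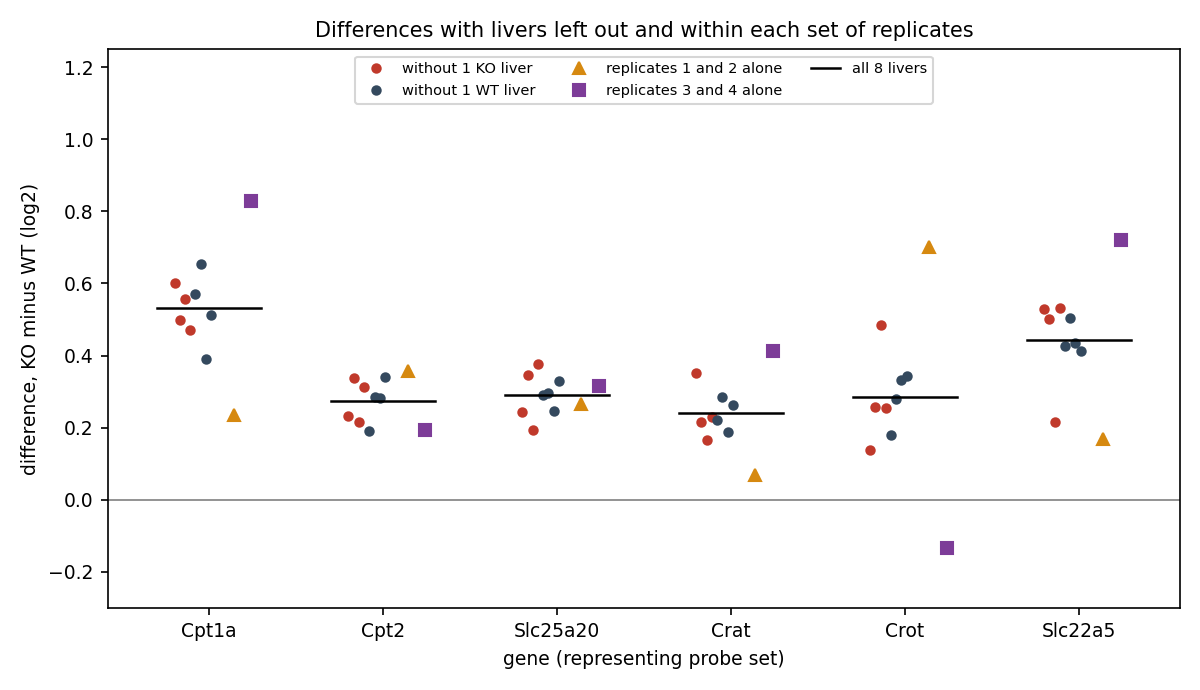
For the representing probe set of each gene (x axis) the difference between KO and WT livers on the log2 scale (y axis) is shown for all 8 livers (black line), without each KO liver (red) or WT liver (dark blue) in turn, and within replicates 1 and 2 (triangle) or replicates 3 and 4 (square). Crot is the 1 gene with a point below 0, at -0.13, and without KO 3 the Slc22a5 point falls to 0.21.

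With Xist as a covariate the 6 differences ran from 0.19 in Crot to 0.60 in Cpt1a, with 0 past the threshold. With the erythroid mean as a covariate they ran from -0.057 in Crat to 0.76 in Crot, with standard errors between 0.30 and 0.48. In that fit 0 probe sets passed in limma, Hsd17b4 included, with 1683 at an unadjusted p under 0.05, and the erythroid mean itself did not overlap between the genotypes. The part of the lower erythroid transcripts in the carnitine differences was not tested. Hepatocyte markers, 6 of which were measured, had a median difference of 0.11, with 4 higher and 2 lower means in KO and 0 past the threshold. Their summed level on the log2 scale lay between 15.31 and 15.35 in KO livers and between 15.27 and 15.30 in WT livers, a narrow gap. Their list means overlapped, at 11.38 to 11.51 in KO livers and 11.25 to 11.45 in WT livers. Of the 5 skeletal muscle and 4 brown fat markers measured, tissues rich in carnitine transferases, 0 passed, and their list means lay below the array medians in all 8 livers, at no more than 3.26.

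Genes around the carnitine route were taken from lists drawn up for this comparison. In carnitine synthesis, all 3 genes had higher means in KO and 0 passed. Bbox1, the hydroxylase of its final step, was lower in WT 3 than in any other liver and averaged 8.59 ± 0.18 in KO and 8.05 ± 0.36 in WT livers (SD, n = 4 each), a difference of 0.53 ± 0.17 (SE, limma adjusted p 0.241). Tmlhe, the hydroxylase of the first step, differed by 0.37 ± 0.15 (adjusted p 0.379) and Aldh9a1, the dehydrogenase between them, by 0.079 ± 0.095.

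Among the 7 other carnitine transferases and carriers measured, 4 had higher and 3 lower means in KO, and 1 passed the threshold, with lower values. Slc22a4, a relative of Slc22a5 that carries ergothioneine and other organic cations, read 4.11, 4.19, 3.89 and 3.89 in KO livers 1 to 4 and 5.39, 4.72, 5.66 and 5.28 in WT livers 1 to 4. All KO values lay below all WT values and near the array medians, so the fall can be an underestimate. At -1.24 ± 0.18 (SE) the level in KO was 2.37-fold lower (limma adjusted p 0.0278). Slc22a4 is also known from red cell precursors. The erythroid markers had a median difference of -0.76, and the part of the lower erythroid transcripts in the Slc22a4 difference was not tested. Slc22a4 was at -0.55 ± 0.37 (SE) and did not pass once the erythroid mean was a covariate, in the fit where 0 probe sets passed. The call was lost without KO 3, KO 4, WT 1, WT 3 or WT 4, for example with an adjusted p of 0.0518 without WT 1 and 0.0955 without WT 3. Of the other 6, 4 had means below the median of all probe sets, among them Cpt1c, the brain form of Cpt1, at 3.19 in KO and 3.15 in WT livers, and Cpt1b, the muscle form, was not found under its symbol.

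Genes that supply acyl-CoA had a median difference of 0.18 over 11 genes. This median was 0.30 without KO 3, 0.30 within replicates 1 and 2 and 0.065 within replicates 3 and 4. Slc27a5, a very long chain acyl-CoA synthetase that also activates bile acids, rose by 0.78 ± 0.12 (SE) to 10.01 ± 0.16 in KO, against 9.23 ± 0.18 in WT livers (SD, n = 4 each), with a limma adjusted p of 0.0340. Acsl3, a long-chain acyl-CoA synthetase, rose by 0.65 ± 0.12 (adjusted p 0.0499). Both calls depended on single arrays: Acsl3 was lost without any 1 of the 8 arrays, and Slc27a5 was lost without any 1 of them but WT 1 or WT 2. Cd36, a fatty acid receptor of the plasma membrane, was at -0.47 ± 0.18 (adjusted p 0.343).

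Genes that set malonyl-CoA, the inhibitor of Cpt1a, did not pass, with 4 of 8 higher and 4 lower. Mlycd, which destroys malonyl-CoA, had the lowest p, at 0.51 ± 0.14 (SE, limma adjusted p 0.157), with 4 KO values above all WT values, as in 3.59% of all genes. Acacb and Acaca, the carboxylases that make malonyl-CoA, also had higher KO means, at 0.71 ± 0.23 (adjusted p 0.240) and 0.38 ± 0.15 (adjusted p 0.328). Enzymes on both sides of this inhibitor thus had higher means in KO, none past the threshold.

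Downstream of the shuttle, 14 of the 15 measured genes listed under mitochondrial beta-oxidation had higher KO means, with a median of 0.31 and 0 past the threshold. Genes were placed in this list by symbol, and the organelle in which each enzyme works was not tested. The lowest p in the list was that of the enoyl-CoA isomerase Eci2, at 0.67 ± 0.15 (SE, limma adjusted p 0.0905). Eci2 passed with array weights (adjusted p 0.0440), with the array set as a block (0.0404) and without WT 2 (0.0486), and up to 2 genes of the list passed in these fits. In peroxisomal beta-oxidation, 11 of 12 had higher means, the median was 0.53 and 2 passed. Abcd2, a fatty acid importer, was at 0.80 ± 0.13 (adjusted p 0.0352) and Acaa1a, a thiolase, at 0.56 ± 0.11 (adjusted p 0.0499). The Acaa1a value comes from 1456737_x_at, whose probes can match other transcripts, so it is not shown to be that of Acaa1a alone. The Abcd2 call was lost without any 1 array but KO 1 or WT 2, and the Acaa1a call without any 1 array but KO 2. The median over all genes was 0.01. The median of the carnitine genes, 0.29, stands beside 0.31 and 0.53 for these lists, and differences between lists were not tested.

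The receptor side gave no call. Ppara itself differed by 0.013 ± 0.17 (SE, limma adjusted p 0.988), and Hnf4a, a transcription factor of hepatocytes, by 0.42 ± 0.16 (adjusted p 0.345). Of the 7 measured outputs of PPARalpha outside the carnitine route, 6 had higher means and 1 passed, Cyp4a14, a fatty acid omega-hydroxylase, at 0.76 ± 0.12 (adjusted p 0.0337), a call lost without any 1 array but KO 2 or WT 2. The median of these 7 was 0.86. Acot1, a thioesterase, differed by 2.10 ± 0.46 (adjusted p 0.0773) and Pdk4, the kinase that shuts off pyruvate oxidation, by 1.76 ± 0.40 (adjusted p 0.0905). Both had KO values all above WT values, as in 3.59% of all genes. Fgf21, the gene of this list with a lower mean in KO, differed by -0.041 ± 0.59 (limma adjusted p 0.989). The differences of the 6 carnitine genes, from 0.24 to 0.53, all lay below the median of these outputs.

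**Figure D5:**
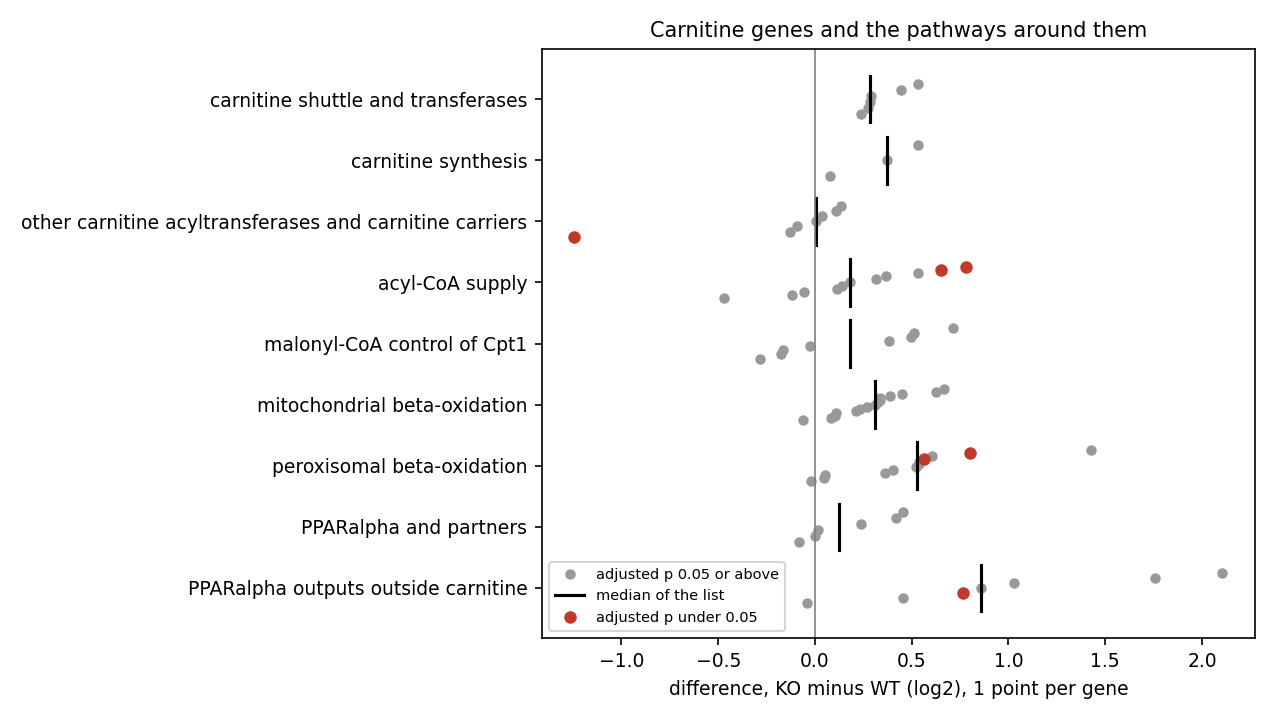
Each point is the difference between KO and WT livers on the log2 scale (x axis) of 1 gene, by list (rows), in red where the limma adjusted p was under 0.05 and in grey otherwise, with a black line at each list's median. The 6 carnitine genes lie between 0.24 and 0.53 with a median of 0.29, the outputs of PPARalpha have a median of 0.86, and Slc22a4 is the lone red point far to the left, at -1.24.

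Genes whose deviations from the genotype means most resembled each carnitine gene over the 8 livers were sought among 11366 genes. For Cpt1a these were Kctd10 (r = 0.98) and Edc3 (0.98), for Cpt2 Rnpc3 (0.96) and Dnttip2 (0.96), and for Slc25a20 Ndfip2 (0.99) and Nsmaf (0.96). For Crat they were Myh14 (0.98) and Sqstm1 (0.96), for Crot Golph3l (0.99) and Mettl9 (0.98), and for Slc22a5 Crim1 (0.99) and Myl12a (0.98). With 8 arrays and so many genes, values of this size describe these livers and nothing more.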

How the data were processed

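The authors deposited 1 table of log2 values which, per the submitters' processing notes, came from RMA, covering 45101 probe sets on 8 arrays of total liver RNA (Trizol extraction, biotin label, per the labels' protocols). Software, version and build were not given in the sources used here. A log2 scale fits the range of values, 1.11 to 13.70. RMA equalises the arrays, so a change in total mRNA is invisible and differences are understated for dim probe sets. Arrays have no read depth, and the 4 livers per group limit the precision.

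The 64 control probe sets were left out. Of the rest the array annotation paired 34945 with 1 gene, 932 with several, and 9160 are unnamed here. Symbols of 34741 were checked by Entrez identifier against GRCm38.p6. The probe set with the highest mean represents its gene. Limma 3.58.1 in R 4.3.3 (lmFit, eBayes, two-sided, no covariate) compared KO with WT, with Benjamini-Hochberg adjustment over 45037 probe sets, a threshold of 0.05 and 95% intervals. The fit was tested on simulated data with planted changes. High recovery was required only at the largest of them, which exceeds every carnitine difference. That test does not show that changes as small as the carnitine differences would pass. Limma was used as the values are on a log scale.

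Named were the 6 genes, Hsd17b4, and of each list the genes past the threshold or the one with the lowest p. As most alike, the 2 genes with the highest r above the median level were named, without clone names or predicted genes. Aldh9a1, Tmlhe, Cpt1c, Cd36, Acaca, Acacb, Ppara, Acot1, Pdk4 and Fgf21 were named after their values were seen, as were the marker genes. Members and lists were chosen with earlier results of these data known. Deviations of same-numbered KO and WT livers correlated with r = -0.0039, 0.069, 0.17 and 0.26, so replicate numbers were not taken as pairs. Alternatives were a filter on low values, 2 normalizations, 2 variance estimates, array weights, blocks by replicate or set, Xist or erythroid covariates, gene means, and fits without single arrays or within sets.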

Additional observations from a re-analysis of the deposited data

Results flagged for a closer look

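In groups of 4 livers, a liver was set apart where its gap to the next exceeded Dixon's 95% critical share of the group's range, which chance gives in about 1 of 20 groups. Of the 28 groups formed by the 14 carnitine probe sets in KO and in WT livers, 3 had such a liver, all of them KO, and of 76 groups checked in all 8 did.

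On Slc22a5 1450395_at, KO 3 read 7.42 against 6.48 to 6.56 in the other KO livers. On Crat 1441919_x_at, KO 1 read 6.47 against 6.83 to 6.86. On Crat 1448544_at, KO 2 read 4.78 against 4.24 to 4.32. A different KO liver was apart in each case.

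Both genes named as most like Slc22a5 were also apart in KO 3, which follows from choosing them by likeness: Crim1 at 5.33 against 4.29 to 4.34 and Myl12a at 9.89 against 9.47 to 9.54. Abcd2 read 8.42 in KO 1 against 8.75 to 8.79 in the other KO livers. On the second Hsd17b4 probe set, 1455777_x_at, KO 1 read 3.06 against 1.73 to 1.88 in the other KO livers, all below the array medians, and WT 3 read 8.78 against 7.80 to 7.96 in the other WT livers.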

How the results depend on the processing

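0 of the 6 carnitine genes passed in limma under any of the 21 alternatives, with 0 to 4 at an unadjusted p under 0.05, against 1 in the fit as reported. The replicate block changed no call on them, with adjusted p-values of the 14 probe sets between 0.182 and 0.714. Higher KO means turned in 2 of their fits. Crat 1417008_at was at -0.057 with the erythroid covariate and Crot 1450966_at at -0.13 in replicates 3 and 4 alone. Hnf4a was at -0.081 with the erythroid covariate. The cause was not tested. The count over all probe sets, 343, was 914 with array weights, 15 with the replicate block, 0 with the erythroid covariate and 4 in replicates 1 and 2 alone. It ran from 9 without WT 4 to 489 without WT 2, so the count depends on single arrays, and the replicate numbers were not shown to pair livers: KO 4 was closest to its own number, while KO 1 was closest to WT 2, at r = 0.19. Of the calls named, Slc22a4, Slc27a5, Abcd2 and Cyp4a14 were lost with the replicate block, with adjusted p-values of 0.0645, 0.0524, 0.0645 and 0.0645, as were Acsl3 at 0.119 and Acaa1a at 0.108. Acsl3 was also lost with median centring (0.0546), a variance trend (0.0645), the array set block (0.0504) and, just over the threshold, array weights, and Acaa1a with median centring (0.0571) and a variance trend (0.0720). All 6 were lost with the erythroid covariate and in replicates 1 and 2 alone, and all but Slc22a4 in replicates 3 and 4 alone. With the erythroid covariate the median difference was 0.16 for the carnitine genes, 0.15 for carnitine synthesis and 0.36 for acyl-CoA supply. Leaving out single arrays took Abcd2 to an adjusted p of up to 0.117, Acaa1a to 0.179 and Cyp4a14 to 0.127.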

Other observations

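Markers of other liver cells were measured for whole lists, and 0 passed the limma threshold. All 5 neutrophil markers had lower means in KO, with a median difference of -0.24, and list means between 10.78 and 11.36 in KO livers and between 10.97 and 11.36 in WT livers. All 4 B cell precursor markers measured had lower means in KO, with a median difference of -0.46. Their list mean lay between 4.27 and 4.55 in KO livers and between 4.42 and 5.33 in WT livers, so the groups overlapped. Macrophage markers had 3 of 5 higher means in KO and a median difference of 0.049, and bile duct markers had 3 of 4 higher means and a median of 0.11. Endothelial and stellate markers each had 4 of 5 lower means in KO, with median differences of -0.11 and -0.16.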
